A study of Mus musculus with 32 samples.

Results

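The change of the wild type (WT) mouse cortex between embryonic days E16.0 and E17.5 was followed in single-cell RNA libraries. All WT libraries of these stages were taken by their titles, 4 at each stage, which gave 8 of the 32 libraries of the series. Each library held the dorsal telencephalon, from which the cerebral cortex develops, of a single C57BL/6J embryo, without its medial part, where the hippocampus would form. At each stage the libraries came from 2 males (M1, M2) and 2 females (F1, F2). Each WT embryo had a partner of the same litter and sex with 1 working copy of Chd8, a chromatin remodeller (Chd8+/-, called Chd8 het), and the 8 Chd8 het libraries of the same stages serve below as a second set. Apart from the genotype, the labels name no treatment or allele for these embryos. Dissociated cells were captured in droplets with the 10x Genomics v2 kit, which reads the 3′ ends of transcripts, so that each count is a captured RNA molecule with its own molecular tag (UMI).

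In the embryonic cortex, radial glia divide at the ventricle and give rise to excitatory neurons, mostly through intermediate progenitors that express Eomes. Neurons of the deep layers are born first and those of the upper layers later, and the last neurons are followed by astrocytes and oligodendrocytes from the same ventricular zone. Inhibitory interneurons migrate in from the ganglionic eminences, outside the dissected region, and Cajal-Retzius cells, which secrete reelin, lie at the surface.

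The 8 libraries held 34083 barcodes with at least 1000 UMIs and 500 genes, with 3245 to 5930 in an E16.0 library and 3246 to 4306 in an E17.5 library. Summed UMIs ranged from 21526605 to 33815407 in the E16.0 libraries and from 15792056 to 22560878 in the E17.5 libraries. The median UMI count per barcode averaged 5615 ± 328 (SD, n = 4) at E16.0 and 4754 ± 563 (SD, n = 4) at E17.5, a difference of -861 UMIs (two-sided exact permutation test, p = 0.0571). With 4 libraries against 4, the smallest p of that test is 0.0286. Any 2 of the libraries shared between 8 and 50 barcodes, at most 1.02% of the smaller library. The labels also carry short codes whose meaning is not stated. At E16.0, M1 and M2 have the code c6 and F1 and F2 have c7, so that code follows sex there. At E17.5, M1 and F1 have the code p, M2 has c17 and F2 has c16. No code occurs at both stages, so differences between stages cannot be told apart from differences between codes. The E17.5 library M1 stood apart, since 92.8% of the 2458 cells of an excitatory neuron cluster came from it, and it held Krt14, a keratin of skin, at 5.45 CPM, that is, UMIs scaled to an equal total for each library, where no other library exceeded 0.0939. Counts of gene lists in the whole tissue that differ without it are given with and without it.

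To ask which genes changed over this interval in the whole tissue, UMIs of all kept barcodes were summed per library and compared with edgeR's quasi-likelihood test, with p-values adjusted by Benjamini and Hochberg over all genes tested. A gene is called when its adjusted p is under 0.05. Log2 fold changes are E17.5 over E16.0, with 4 libraries on each side, and values in libraries are CPM in the order M1, M2, F1, F2. Of 14427 genes tested, 792 (5.49%) rose and 1001 (6.94%) fell. Without E17.5 M1, 1106 of 14568 genes (7.59%) rose and 1225 (8.41%) fell. Other libraries moved the count down, the most E16.0 M2, without which 252 of 14573 genes rose and 310 fell. Without E16.0 M1, 271 of 14614 rose and 360 fell. These 2 libraries, both of code c6, were the closest pair of their stage, at a root mean square log2 distance of 0.28. F1 and F2 lay 0.43 and 0.45 from their nearest library of that stage. The main test treats the 4 libraries of a stage as independent and takes no account of the codes. The libraries of code p alone gave 2911 calls and those of codes c16 and c17 alone gave 1871. A fit that gave every barcode the same weight, in place of every UMI, gave 539 rises and 1559 falls. Rises then made up 25.7% of the calls in place of 44.2%. That fit also used another test (limma on log2 mean CPM) and no scaling between libraries beyond CPM. The shift therefore cannot be credited to the weighting alone. In sums of UMIs, fewer cells of a type and less RNA per cell cannot be told apart.

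Among well detected genes without overlap between stages (average log2 CPM of 4 or more), the largest falls included genes of progenitors and Fezf2, a gene of deep-layer neurons. The largest rises included Olig1 and genes of synapses and neuronal adhesion. Lpar1, a receptor for lysophosphatidic acid (ENSMUSG00000038668, GRCm38 chromosome 4, 58435255 to 58553898, minus strand), lay at 51.5, 64.7, 40.8 and 64.8 CPM at E16.0 and at 9.04, 10.5, 8.78 and 12.9 CPM at E17.5. Its log2 fold change of -2.34 (SE 0.18, adjusted p = 0.000352) was the largest of these falls. Olig1, a transcription factor of the oligodendrocyte lineage (ENSMUSG00000046160, chromosome 16, 91269772 to 91271933, plus strand), lay at 11.5, 9.26, 8.19 and 4.04 CPM at E16.0 and at 53.5, 83.9, 65.4 and 41.8 CPM at E17.5. Its log2 fold change of 2.98 (SE 0.31, adjusted p = 0.0018) was the largest of these rises.

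**Figure D1:**
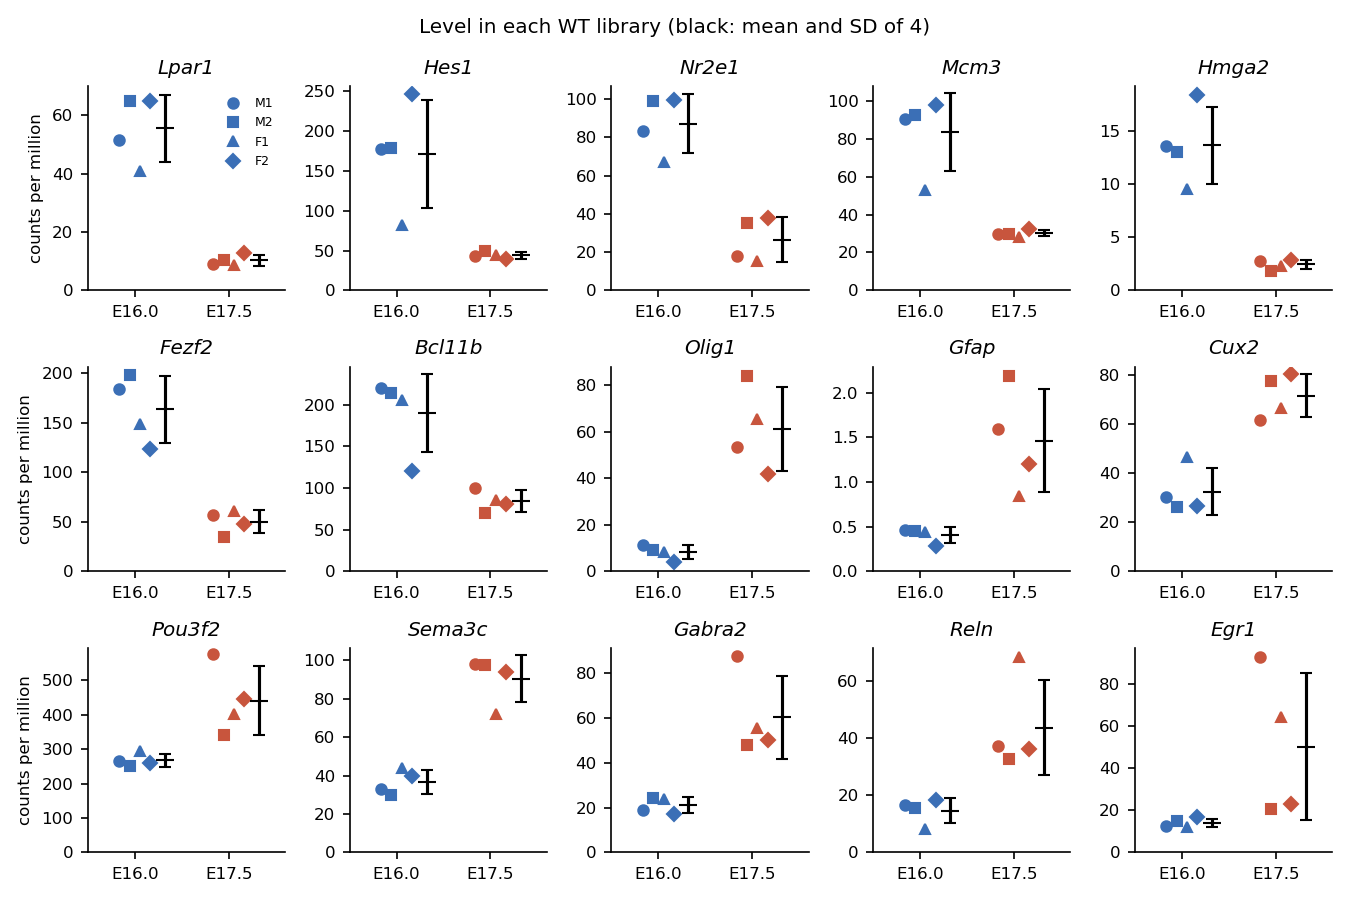
CPM (linear axes from 0) of 15 named genes in each of the 8 WT libraries, with E16.0 and E17.5 side by side, 1 point per library, and the mean and SD of 4 libraries in black. Lpar1, Hes1, Fezf2 and Hmga2 lie lower and Olig1, Cux2, Gabra2 and Gfap higher at E17.5, with no overlap between the stages for these 8 genes. For Lpar1, Hes1, Fezf2, Olig1 and Gabra2 absence of overlap was a condition for naming the gene.

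A part of the radial glia genes fell. Of 18 radial glia genes, 7 fell, against 6.94% of all genes, and none rose, with a median log2 fold change of -0.58 against 0.04 over all genes tested. Hes1, a Notch target that keeps progenitors undifferentiated (chromosome 16, 30064384 to 30067796, plus strand), lay at 177, 179, 82.2 and 246 CPM at E16.0 and at 43.7, 49.3, 44.3 and 38.9 CPM at E17.5, a log2 fold change of -1.87 (SE 0.26, adjusted p = 0.00564). E16.0 F1 was the lowest of its group for Hes1, as it was for several progenitor genes. Vim, the intermediate filament of radial glia, changed by -1.46 (adjusted p = 0.00122), with 834 to 1365 CPM at E16.0 and 393 to 411 CPM at E17.5. Nr2e1, a nuclear receptor of neural stem cells, changed by -1.62 (adjusted p = 0.00938), and Aldoc, a glycolytic enzyme of radial glia, by -1.61 (adjusted p = 0.00429). Tfap2c, a transcription factor of basal progenitor production, changed by -1.66 (adjusted p = 0.00429). Sox2 (-0.55, adjusted p = 0.092) and Fabp7 (-0.58, adjusted p = 0.0726) missed the threshold. With code p alone both were called (adjusted p = 0.0102 and 0.024), and Fabp7 also with DESeq2 (0.0275) and with barcodes weighted equally (0.0466). Without 1 library, Sox2 was called without E17.5 F2 (0.028) and Fabp7 without E16.0 F1 (0.0443).

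Both proneural factors of the Neurog family fell. Neurog1 lay at 10.8 to 14.53 CPM at E16.0 and at 1.24 to 4.43 CPM at E17.5, a log2 fold change of -2.40 (SE 0.32, adjusted p = 0.00429). Neurog2, its close relative, lay at 449, 510, 391 and 494 CPM and then at 195, 210, 188 and 288 CPM (-0.98, SE 0.14, adjusted p = 0.00589). In both cases the stages did not overlap, and E17.5 F2 was the highest of its group. Eomes, the defining factor of intermediate progenitors, had a log2 fold change of -0.36 (adjusted p = 0.101; 0.0399 with code p alone and 0.0167 with barcodes weighted equally). Of 14 intermediate progenitor genes, 4 fell, against 6.94% of all genes, and none rose (median -0.33). Without E17.5 M1, 4 fell and 2 rose. Of the further large falls, Shisa2 (-1.49, adjusted p = 0.0109) restrains Wnt and FGF signalling, Trip6 (-1.58, adjusted p = 0.00589) encodes a LIM domain protein and Mir670hg (-1.53, adjusted p = 0.0111) is a non-coding host gene of microRNAs. Etl4 fell as well (-1.69, adjusted p = 0.00589).

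Genes of the cell cycle fell together. Of 22 DNA replication genes, 20 fell and none rose (median -0.94), and of 24 mitosis genes, 18 fell (21 without E17.5 M1) and none rose (median -0.80). Both shares lie above the 6.94% of all genes that fell. Mcm3, a subunit of the replicative helicase (chromosome 1, 20802968 to 20820312, minus strand), lay at 90.4, 92.5, 52.8 and 97.7 CPM at E16.0 and at 29.7, 29.99, 28.4 and 32.4 CPM at E17.5 (-1.38, SE 0.17, adjusted p = 0.00302). The E17.5 values of Mcm3 were close to each other and E16.0 F1 was the low library of its group. Mcm7, of the same helicase, fell by 0.71 on the log2 scale (adjusted p = 0.00781), and Ccne2, a cyclin of S phase entry, by 1.20 (adjusted p = 0.0109). Pcna, the sliding clamp of the polymerases, missed the threshold (-0.50, adjusted p = 0.0685), and was called with DESeq2 (0.0325), with code p alone (0.0399), with barcodes weighted equally (0.0289) and without E16.0 F1 (0.0197).

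Of the mitosis genes, Cdk1, the kinase that drives entry into mitosis, lay at 212, 240, 158 and 252 CPM at E16.0 and at 95.7, 96.0, 86.2 and 110 CPM at E17.5 (-1.06, SE 0.14, adjusted p = 0.00395). Its cyclin partner Ccna2 fell by 1.04 (adjusted p = 0.0162), Ube2c, a ubiquitin-conjugating enzyme of mitotic exit, by 0.76 (adjusted p = 0.0321), and Hmgb2, a chromatin protein of dividing cells, by 0.65 (adjusted p = 0.0461). The last 3 calls were not firm. Ccna2 lost its call without E16.0 M2 (adjusted p = 0.0531), Ube2c without E16.0 M1, M2 or F2 or E17.5 M2 or F1 (up to 0.0887), and Hmgb2 without E16.0 M1, M2 or F2 or E17.5 M1, F1 or F2 (up to 0.121). With codes c16 and c17 alone the adjusted p of Ube2c was 0.0901 and that of Hmgb2 0.175. Mki67, a marker of all dividing cells, was 1 of the mitosis genes not called, with 52.5, 60.5, 46.1 and 75.3 CPM at E16.0 and 79.0, 31.9, 26.2 and 46.5 CPM at E17.5 (-0.28, adjusted p = 0.538). Its stages overlapped: E17.5 M1 was the highest of all 8 libraries, and E17.5 F2 was just above E16.0 F1.

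Promoters of the 3 called mitosis genes of highest level with an entry in the RefSeq promoter table (GRCm38.p6) are shown because these genes moved together. Each runs from 250 bases before to 50 bases after the annotated start, in the direction of the gene: Hmgb2 is chr8:57511593-57511892 on the plus strand, Ube2c is chr2:164769679-164769978 on the plus strand and Cdk1 is chr10:69352863-69353162 on the minus strand. Capitals mark the CHR element TTTGAA, the CCAAT box CCAAT and the E2F site (TTTCGCGC, TTTGGCGC or TTTCCCGC), each searched on both strands, so that a match on the opposite strand reads as its reverse complement.
Hmgb2: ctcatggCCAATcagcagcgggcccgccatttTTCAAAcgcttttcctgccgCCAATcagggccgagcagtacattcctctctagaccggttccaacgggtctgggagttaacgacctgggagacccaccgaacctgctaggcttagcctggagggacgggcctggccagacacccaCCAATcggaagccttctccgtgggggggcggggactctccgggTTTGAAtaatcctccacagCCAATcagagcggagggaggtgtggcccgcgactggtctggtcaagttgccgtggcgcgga
Ube2c: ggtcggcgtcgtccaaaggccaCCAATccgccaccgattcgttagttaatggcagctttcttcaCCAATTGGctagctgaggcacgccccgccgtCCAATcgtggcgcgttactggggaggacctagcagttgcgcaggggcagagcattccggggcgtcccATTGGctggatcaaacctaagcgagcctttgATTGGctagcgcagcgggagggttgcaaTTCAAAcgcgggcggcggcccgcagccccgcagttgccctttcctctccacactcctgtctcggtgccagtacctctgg
Cdk1: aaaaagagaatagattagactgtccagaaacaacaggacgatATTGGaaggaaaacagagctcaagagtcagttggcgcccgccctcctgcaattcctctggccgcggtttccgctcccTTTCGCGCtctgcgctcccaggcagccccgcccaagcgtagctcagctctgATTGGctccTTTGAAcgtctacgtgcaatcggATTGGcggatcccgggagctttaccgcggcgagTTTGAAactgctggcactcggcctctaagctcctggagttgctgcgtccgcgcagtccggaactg
All 3 promoters hold CHR and CCAAT matches, the CHR match closest to the start lying at -30 in Hmgb2, -29 in Ube2c and -15 in Cdk1, and a pair of CCAAT matches overlap in Ube2c. Of the mitosis genes with a promoter in the table, 14 of 20 (70%) held the CHR letters, against 1 of 18 replication genes (5.56%) and 18.1% of all 27025 promoters. The E2F letters were in 7 of 18 replication promoters (38.9%), 1 of 20 mitosis promoters (5%) and 1.91% of all. CCAAT was in 17 of 20 (85%), 11 of 18 (61.1%) and 37.9%. These are matches of letters in a window, and no binding was measured here.

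Of 12 tested genes of a developmental timing list, 4 fell and none rose, against 6.94% of all genes that fell, with a median of -0.04. Hmga2, a chromatin protein of young neural stem cells (chromosome 10, 120361275 to 120476469, minus strand), lay at 13.6, 13.0, 9.52 and 18.4 CPM at E16.0 and at 2.79, 1.88, 2.30 and 2.85 CPM at E17.5 (-2.40, SE 0.22, adjusted p = 0.000975). Igf2bp2, an RNA-binding protein that stabilises messages, lay at 32.9, 33.0, 35.8 and 43.1 CPM and then at 13.5, 13.5, 13.1 and 14.9 CPM (-1.32, SE 0.12, adjusted p = 0.000975). For both genes the stages were far apart compared with the spread within a stage. The other 2 that fell were Igf2bp1, of the family of Igf2bp2 (-0.55, adjusted p = 0.0179), and Dach1, a transcription factor of progenitors (-0.89, adjusted p = 0.0114).

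Genes of glia moved in both directions in the whole tissue. Gfap, the filament of astrocytes (chromosome 11, 102887336 to 102900912, minus strand), lay at 0.468, 0.450, 0.444 and 0.279 CPM at E16.0 and at 1.596, 2.19, 0.845 and 1.20 CPM at E17.5 (1.89, SE 0.33, adjusted p = 0.00984). Slc1a2, the main glutamate transporter of astrocytes, lay at 5.21, 4.37, 4.61 and 3.86 CPM and then at 13.6, 10.1, 8.26 and 9.63 CPM (1.28, SE 0.17, adjusted p = 0.00402). Both levels were low and did not overlap between stages. Egfr, the receptor for EGF on late progenitors, rose by 3.13 (adjusted p = 0.00059) from 0.836 to 1.19 CPM up to 6.02 to 12.1 CPM. Fgfr3, an FGF receptor of progenitors and astrocytes, fell by 1.21 (adjusted p = 0.0171), and Nfix, a factor of the switch to gliogenesis, rose by 0.46 (adjusted p = 0.0249). Fgfr3 lost its call without E16.0 M2 (adjusted p = 0.0595), and Nfix without E16.0 M2 or F2 or E17.5 M2 or F1 (up to 0.0723). Of 21 astrocyte onset genes, 6 rose and 5 fell, against 5.49% and 6.94% of all genes, with a median of 0.05. Apoe, a lipid carrier of astrocytes, had a log2 fold change of 0.03 (adjusted p = 0.943).

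Of 11 tested oligodendrocyte precursor genes, 5 rose (6 without E17.5 M1), against 5.49% of all genes that rose, and none fell (median 0.98). Olig2, the factor that specifies this lineage, lay at 4.62, 5.08, 4.08 and 4.69 CPM at E16.0 and at 28.8, 44.0, 35.2 and 30.6 CPM at E17.5 (2.998, SE 0.17, adjusted p = 7.68e-05). Pdgfra, the growth factor receptor of these cells, lay between 0.883 and 1.35 CPM and then between 2.53 and 5.94 CPM (2.12, adjusted p = 0.0036). The summed level of the list was 58.95 to 79.58 CPM at E16.0 and 144.12 to 208.64 CPM at E17.5.

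Among neuronal identity genes, 4 of 16 deep-layer genes fell, against 6.94% of all genes, and 8 of 17 tested upper-layer genes rose, against 5.49%. Fezf2, which specifies corticospinal neurons (chromosome 14, 12342094 to 12348189, minus strand), lay at 184, 198, 149 and 124 CPM at E16.0 and at 56.8, 35.1, 60.9 and 47.7 CPM at E17.5 (-1.62, SE 0.18, adjusted p = 0.00237). Bcl11b, which acts downstream of Fezf2 in these neurons, lay at 220, 214, 206 and 121 CPM and then at 101, 69.6, 86.3 and 80.6 CPM (-1.09, SE 0.18, adjusted p = 0.0075). E16.0 F2 was the low library of its stage for both genes, and for Bcl11b it was still above every E17.5 library. The median of the deep-layer genes was -0.38, and 1 of them rose, Pcp4, a calmodulin regulator of layer 5 neurons (0.83, adjusted p = 0.00773). Tbr1, the factor of layer 6, had a log2 fold change of -0.18 (adjusted p = 0.512). Without E17.5 M1, 5 fell and 1 rose, and of 9 tested subplate genes 1 fell with M1 and 2 without it, against 6.94% and 8.41% of all genes. The subplate gene called in both was Lpar1.

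Cux2, a factor of upper-layer neurons (chromosome 5, 121856366 to 122050102, minus strand), lay at 30.4, 26.0, 46.5 and 26.6 CPM at E16.0 and at 61.7, 77.6, 66.8 and 80.3 CPM at E17.5 (1.22, SE 0.20, adjusted p = 0.00783). Pou3f2, a POU factor of upper-layer neurons, lay at 251.3 to 294 CPM and then at 340 to 578 CPM (0.79, adjusted p = 0.00931). M1 and F1, the libraries of code p, had the lower Cux2 levels at E17.5, and neither gene overlapped between stages. Of 17 tested upper-layer genes, 8 rose and 1 fell (median 0.52). The gene that fell was Cdh13, a cadherin (-1.41, adjusted p = 0.0316). Cdh13 lost its call without E16.0 M1, M2 or F1 or E17.5 F2 (adjusted p up to 0.0927).

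Several of the largest rises were in genes of neuronal guidance, receptors and adhesion. Sema3c, a secreted guidance cue of late-born neurons (chromosome 5, 17574281 to 17730268, plus strand), lay at 33.3, 29.7, 43.7 and 40.0 CPM at E16.0 and at 98.3, 97.5, 72.2 and 93.8 CPM at E17.5 (1.38, SE 0.15, adjusted p = 0.00237). Gabra2, a subunit of the GABA-A receptor (chromosome 5, 70957597 to 71095849, minus strand), lay at 18.9, 24.5, 23.7 and 17.3 CPM and then at 87.8, 47.9, 55.7 and 50.3 CPM (1.59, SE 0.19, adjusted p = 0.00279). Lsamp, an adhesion molecule of the limbic system, lay at 33.7, 32.4, 64.6 and 33.1 CPM and then at 134, 98.7, 110 and 104 CPM (1.51, SE 0.23, adjusted p = 0.00615). Absence of overlap between stages was a condition for naming these 3, and M1 had the highest level of each at E17.5. Further members of the largest rises were Tafa2, a secreted neuronal protein (1.51, adjusted p = 0.00505), and Osbpl6, an oxysterol-binding protein (1.39, adjusted p = 0.00701).

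Of 32 genes for receptors and the postsynaptic density, 8 rose and none fell (median 0.61), against 5.49% and 6.94% of all genes, and without E17.5 M1 10 rose and 1 fell, against 7.59% and 8.41%. The summed level of this list was 791.81 to 1111.56 CPM at E16.0. At E17.5 it was 2308.2 and 1642.2 CPM in M1 and F1, of code p, and 1177.63 and 1239.04 CPM in M2 and F2. Gria2 and Gria4, subunits of AMPA receptors, rose by 1.03 (adjusted p = 0.0218) and 1.501 (adjusted p = 0.0125). Gria2 lay at 1425 CPM in E17.5 M1 and at 634 to 831 CPM in the other E17.5 libraries, against 369 to 555 CPM at E16.0, and lost its call without E16.0 M1, M2 or F2 or E17.5 F1 (adjusted p up to 0.0679). Grin2b, a subunit of NMDA receptors, lay at 141 and 126 CPM in the libraries of code p and at 42.3 and 42.4 CPM in the other 2, against 56.3 to 85.9 CPM at E16.0 (0.40, adjusted p = 0.489). So Grin2b was above all E16.0 libraries under 1 code and below them under the others: its log2 fold change was 0.98 (adjusted p = 0.0052) with code p alone and -0.62 (adjusted p = 0.0256) with c16 and c17 alone, so that it was called in opposite directions. What the codes stand for, and their part in such splits, was not tested.

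Of 25 transmitter release genes, 6 rose and 1 fell (median 0.46), against 5.49% and 6.94% of all genes, and without E17.5 M1 8 rose and none fell. The summed level of this list was 1132.32 to 1596.4 CPM at E16.0 and 1667.61 to 1948.71 CPM at E17.5. Nrxn3, a presynaptic adhesion molecule, lay at 12.6, 11.99, 25.4 and 8.41 CPM at E16.0 and at 35.6, 81.2, 36.7 and 55.4 CPM at E17.5 (1.91, SE 0.38, adjusted p = 0.0133; 0.051 without E16.0 M2). Its highest level was in E17.5 M2. Rims1, a scaffold of the active zone, rose by 1.10 (adjusted p = 0.0409) but lost its call without any E16.0 library or E17.5 M1 or F1 (up to 0.105) and with codes c16 and c17 alone (0.139). Of 25 tested channel genes, 5 rose (4 without E17.5 M1) and none fell (median 0.48), among them Cacng2, a partner of AMPA receptors (1.14, adjusted p = 0.0131), and Kcnc1, a fast potassium channel (1.03, adjusted p = 0.0104). The summed level of the channel list was 674.66 and 497.52 CPM in E17.5 M1 and F1, of code p. In E17.5 M2 and F2 it was 355.1 and 382.28 CPM, within the 304.74 to 420.29 CPM of E16.0. The part of the codes in this split was not tested. Of 27 tested axon guidance genes, 3 rose and 1 fell (3 and 2 without E17.5 M1; median 0.17), against 5.49% and 6.94% of all genes. Unc5c, a netrin receptor, rose by 1.73 (adjusted p = 0.00913), and Robo2, a Slit receptor, by 0.86 (adjusted p = 0.0227; up to 0.0718 without E16.0 M1, M2 or F2). Of 15 genes of newborn migrating neurons, 4 rose and 1 fell (5 and 1 without E17.5 M1; median 0.42). Unc5d, a netrin receptor of cells in the subventricular zone, rose by 1.19 (adjusted p = 0.00612), and Neurod6, a factor shared by most young excitatory neurons, had a log2 fold change of 0.12 (adjusted p = 0.565).

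Of 23 interneuron genes, 12 rose (14 without E17.5 M1), against 5.49% of all genes, and none fell (median 1.47), and their summed level was 220.03 to 301.49 CPM at E16.0 and 347.50 to 659.70 CPM at E17.5. Htr3a, the serotonin receptor of interneurons of the caudal eminence, lay at 2.40, 1.77, 2.10 and 1.86 CPM and then at 5.54, 15.4, 11.3 and 9.498 CPM (2.45, SE 0.31, adjusted p = 0.0036). Dlx1, a homeobox factor of interneurons, lay at 5.96, 8.94, 18.5 and 5.30 CPM and then at 19.9, 66.6, 16.9 and 42.2 CPM (1.98, SE 0.52, adjusted p = 0.0353). Htr3a was separate between stages while Dlx1 overlapped, E17.5 F1 being below E16.0 F1, and Dlx1 lost its call without E16.0 M1, M2 or F2 or E17.5 M2 or F2 (adjusted p up to 0.101) and with code p alone (0.163). Of 6 tested genes of ganglionic eminence progenitors, 2 rose and none fell, against 5.49% and 6.94% of all genes, and without E17.5 M1 4 rose, against 7.59%. Olig2, 1 of the risers, is also on the oligodendrocyte precursor list, and Dlx2 is on the interneuron list. Of 8 tested striatal genes, 1 fell, against 6.94% of all genes, and none without E17.5 M1, against 8.41%.

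Of 8 Cajal-Retzius cell genes, 7 rose, against 5.49% of all genes, and none fell (median 1.65), with a summed level of 15.17 to 30.75 CPM at E16.0 and 65.75 to 131.61 CPM at E17.5. Reln, the secreted signal of these cells (chromosome 5, 21884454 to 22344702, minus strand), lay at 16.5, 15.4, 8.22 and 18.4 CPM and then at 37.3, 32.6, 68.5 and 36.2 CPM (1.68, SE 0.29, adjusted p = 0.00913). Calb2, the calcium buffer calretinin, lay at 0.858 to 4.43 CPM and then at 12.3 to 23.0 CPM (2.695, adjusted p = 0.00691). Ndnf, a secreted neurotrophic protein, lay at 1.24 to 2.37 CPM and then at 6.02 to 13.7 CPM (2.26, adjusted p = 0.00429). Calb2 and Ndnf did not overlap between stages, which was a condition for naming Reln, and E17.5 F1 was the highest for all 3.

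Among cells of vessels and blood, 3 of 10 endothelial genes, 1 of 8 pericyte genes and 2 of 6 tested genes of meningeal fibroblasts rose, against 5.49% of all genes, and none of them fell. Flt1, a receptor for vascular endothelial growth factor, rose by 1.04 (adjusted p = 0.0118), and its call was lost with likely doublets left out (adjusted p = 0.117). Slco1c1, a transporter of thyroid hormone in brain vessels and glia, rose by 1.01 (adjusted p = 0.0153), and Igf2, a growth factor of meninges and vessels, by 1.37 (adjusted p = 0.0166), both lost without E16.0 M1 or M2 (up to 0.0557). Slco1c1, 1 of the 3 endothelial genes that rose, also rose within cells named radial glia below, with means of 30.6 and 138 CPM there. Its rise is thus not particular to vessels. Of 12 microglia genes none was called, and their summed level overlapped (70.75 to 174.13 and 52.45 to 232.52 CPM). Of 10 tested erythroid genes, 1 rose and 2 fell, against 5.49% and 6.94% of all genes. Without E17.5 M1 3 rose and 1 fell, against 7.59% and 8.41%. The summed level of the list varied between libraries, from 2735.08 to 5792.05 CPM at E16.0 and from 2400.26 to 14600.25 CPM at E17.5. Of 6 tested thalamic genes, 3 rose and 2 fell, against 5.49% and 6.94% of all genes. Calb2 and Prox1 of this list are also on the Cajal-Retzius cell and interneuron lists, and Calb2 was 1 of the risers. Of 8 choroid plexus genes 7 were too low to be tested and the other one was not called. The part of these cells in the results above was not tested.

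Of 11 tested genes of the amino acid and ER stress list, 3 fell (2 without E17.5 M1) and none rose (median -0.42), against 6.94% of all genes that fell, among them Psat1 (-1.33, adjusted p = 0.00589) and Phgdh (-1.05, adjusted p = 0.00922), enzymes of serine synthesis. Of 16 cholesterol synthesis genes, 3 fell and none rose (1 without E17.5 M1), among the former Msmo1 (-0.44, adjusted p = 0.0466; up to 0.137 without E16.0 M1, M2 or F2 or E17.5 M2, F1 or F2). Of 16 hypoxia and glycolysis genes, 2 rose and 1 fell, against 5.49% and 6.94% of all genes. The genes named by rule were Ldha, the lactate dehydrogenase subunit (-0.59, adjusted p = 0.013), and Ankrd37, a target of hypoxia signalling (0.70, adjusted p = 0.0427; up to 0.111 without any library other than E17.5 M1, and 0.177 with code p alone). Of 14 tested thyroid hormone and retinoid genes, 2 rose and 1 fell (1 and 1 without E17.5 M1). Of 77 tested ribosomal protein genes, 1 rose (2 without E17.5 M1).

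Without E17.5 M1, 1 of 15 tested immediate early and heat shock genes rose and 1 fell, against 7.59% and 8.41% of all genes. With all libraries 1 of 15 rose, against 5.49% of all genes. It was Egr1, a factor induced by activity and by dissociation, at 12.6, 14.7, 11.98 and 16.6 CPM at E16.0 and at 92.9, 20.6, 64.1 and 23.0 CPM at E17.5 (1.91, SE 0.43, adjusted p = 0.02). The E17.5 libraries split by code, M1 and F1 being high, and the call was lost without E16.0 M1 or M2 or E17.5 F1 (adjusted p up to 0.0648). The mitochondrial gene mt-Atp6 split alike, with 27.8 and 29.2 CPM in M1 and F1 and 12.4 and 13.9 CPM in M2 and F2, against 9.23 to 12.6 CPM at E16.0 (1.05, adjusted p = 0.0333). With codes c16 and c17 alone its adjusted p was 0.092, and it was up to 0.0944 without any E16.0 library or E17.5 M1 or F1. Of 11 tested mitochondrially encoded genes, 2 rose, and 1 without E17.5 M1, against 5.49% and 7.59% of all genes.

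**Figure D2:**
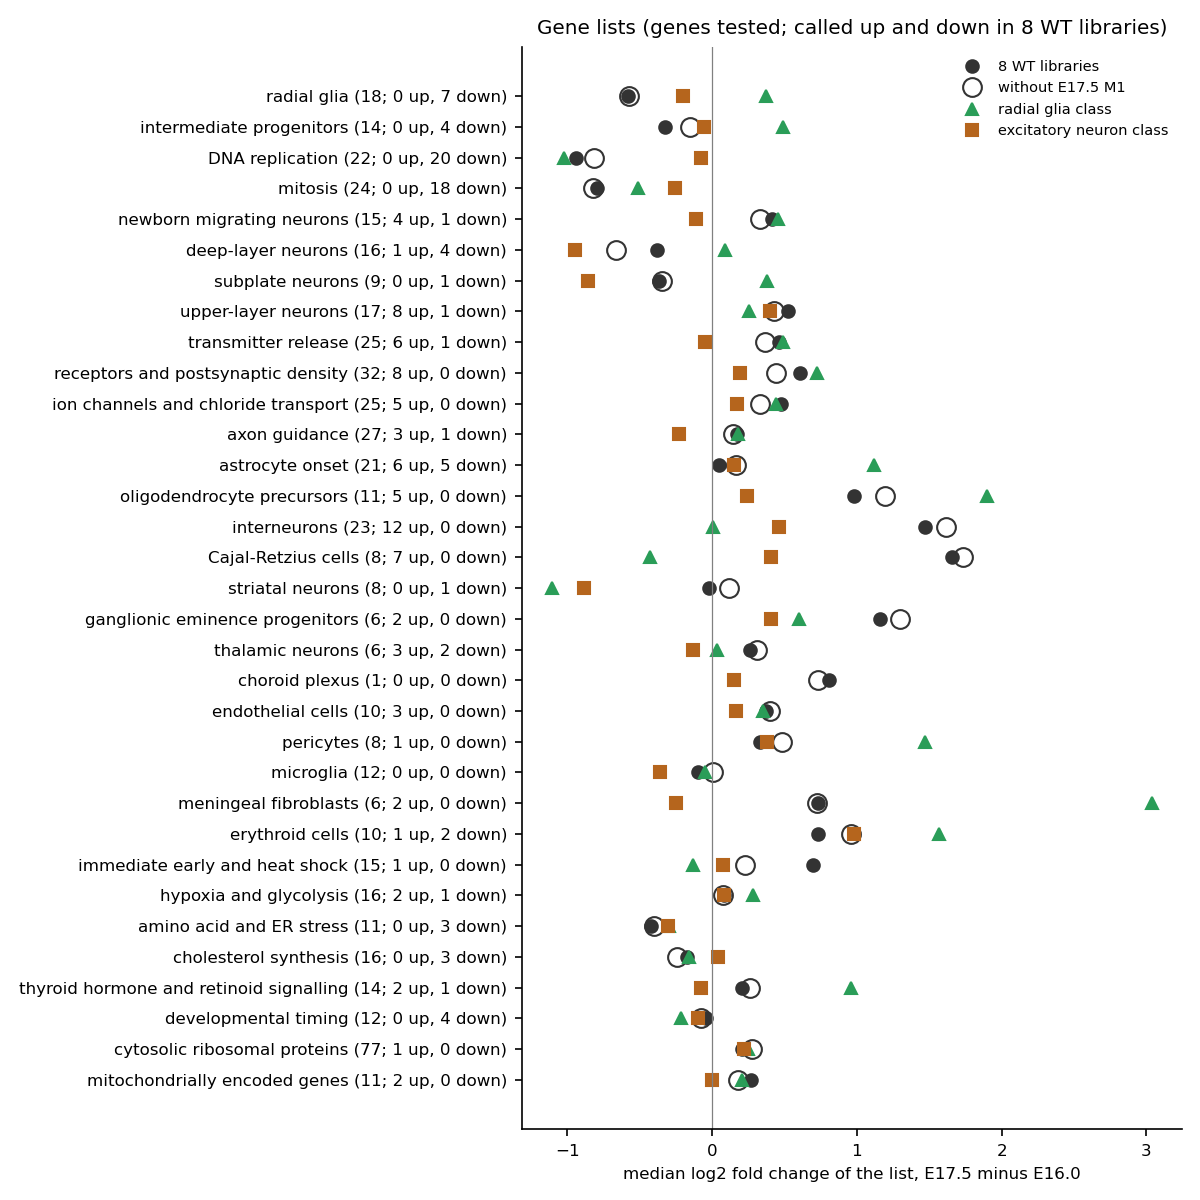
Median log2 fold change (E17.5 over E16.0) of each gene list in the 8 WT libraries, without E17.5 M1, and within the radial glia and excitatory neuron classes, with the numbers tested, risen and fallen. Over the 8 libraries, interneuron and Cajal-Retzius cell genes lie highest (medians 1.47 and 1.65) and the DNA replication and mitosis lists lowest (medians -0.94 and -0.80).

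The Chd8 het embryos of the same litters were compared between the same stages in the same way. Of 14636 genes tested, 1023 (6.99%) rose and 1206 (8.24%) fell. Of the 787 WT risers tested in the het libraries, 531 (67.5%) rose there, and of 997 WT fallers, 759 (76.1%) fell, with none called in the opposite direction. Seen from the other side, 53.5% of the het risers and 63.0% of the het fallers that were tested in WT were called in WT. The sets share litters, so they are not independent. The cell cycle lists had like counts, with 20 of 22 replication genes and 17 of 24 mitosis genes lower. Olig1 had a log2 fold change of 3.01 in the het libraries. Reln, called in WT, had a het value of 1.05 that missed the threshold (adjusted p = 0.071), and 3 of 8 Cajal-Retzius cell genes rose there against 7 in WT. The difference between genotypes in the stage effect was itself tested over 15061 genes, and 0 (0%) were called by edgeR, with 155 at an unadjusted p under 0.05, and 0 by DESeq2, with 285 at an unadjusted p under 0.05. These fits left out the litter pairs of WT and het embryos, although deviations from the group means correlated within pairs (r from 0.15 to 0.66). With each pair as a block, edgeR called 0 and had 844 at an unadjusted p under 0.05.

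**Figure D3:**
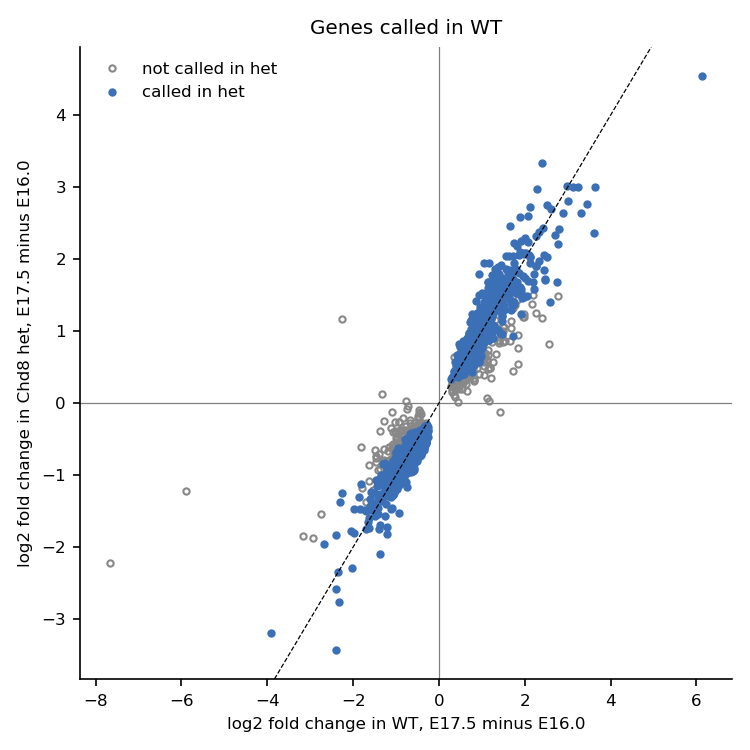
Log2 fold change (E17.5 over E16.0) in the 4 against 4 Chd8 het libraries (vertical) against that in WT (horizontal) for the genes called in WT, 1 point per gene, filled where the gene was called in the het libraries too; the dashed line marks equal values. The signs match for 786 of 787 risers and 994 of 997 fallers.

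To look within cell types, cells were clustered and named from marker genes, and UMIs were summed per library and class. Libraries were clustered together without adjustment for stage or library, so a cluster can follow either of these as well as cell type. Shares of clusters within a class pool the cells of a stage. Radial glia had 155 to 1099 cells per library, intermediate progenitors 453 to 1342 and excitatory neurons 1145 to 3044. Interneurons were not fitted, since E16.0 F2 held 42 of them, fewer than the 50 required. A cluster of 88 cells led by keratin genes, 55.7% of them from E17.5 M1, was left unnamed by a rule added after the cluster names had been seen. At 2 times the clustering resolution the naming rule also left unnamed a cluster of 651 cells (227 at E16.0 and 424 at E17.5) with 14 radial glia markers, led by Ogn, Tnc and Aldh1l1, and 900 cells led by Tfap2d. Unnamed cells then made up 2.54% to 10.6% of a library, so values of radial glia at that resolution are given without and with the cluster of 651 cells, the latter an alternative chosen after seeing the data. Free RNA was not modelled, so sums of a class hold some RNA of others.

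The make-up of the classes differed between the stages. Radial glia made up 22.1%, 22.9%, 15.9% and 30.1% of the cells at E16.0 and later 5.41%, 9.11%, 4.18% and 10.1%, means of 22.8% ± 5.85 and 7.21% ± 2.86 (SD, n = 4 and 4; two-sided exact permutation test, p = 0.0286, adjusted over 10 classes 0.0714). The stages did not overlap, and at E17.5 the libraries of code p were the lower ones. Interneurons had means of 2.41% ± 1.32 and 7.44% ± 3.31, oligodendrocyte precursors 0.548% ± 0.380 and 3.26% ± 0.887, and Cajal-Retzius cells 0.163% ± 0.0748 and 0.813% ± 0.394, each with the same exact p of 0.0286 and adjusted p of 0.0714. Intermediate progenitors had 26.1% ± 3.22 and 18.2% ± 5.82 (exact p = 0.0571, adjusted 0.114) and excitatory neurons 47.2% ± 7.60 and 61.4% ± 11.2 (exact p = 0.0857, adjusted 0.143). Endothelial cells, pericytes, microglia and erythroid cells had exact p-values between 0.171 and 0.857. At 0.5 times the resolution, endothelial cells had 0.146% ± 0.143 and 0.694% ± 0.416 (exact p = 0.0571, adjusted 0.0952). That cluster of 127 cells, 40.9% from E17.5 M1, had as many cells as the 39 endothelial and 88 keratin-led cells together, and no keratin-led cluster stood beside it. At 2 times the resolution intermediate progenitors had 30.8% ± 2.71 and 21.5% ± 7.47 (exact p = 0.0286, adjusted 0.0571). No adjusted p was under 0.05 at any of the 3 resolutions. The exact p cannot be lower than 0.0286 here, so the adjusted p of a class at that value depends on how many of the 10 classes reach it. Its lying above 0.05 therefore does not show that the shares were alike. At 2 times the resolution the shares of radial glia were 21.4% ± 5.80 and 4.09% ± 1.59 without the unnamed cluster of 651 cells and 22.6% ± 5.81 and 7.07% ± 2.89 with it, and those of oligodendrocyte precursors 0.217% ± 0.0516 and 2.16% ± 0.152. The cluster of oligodendrocyte precursors also had Gsx2, Dlx2 and Helt, genes of ganglionic eminence progenitors, among its leading genes, and at that resolution 224 cells led by these genes formed a separate cluster. Shares depend on dissociation and on the cells captured, which was not tested.

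**Figure D4:**
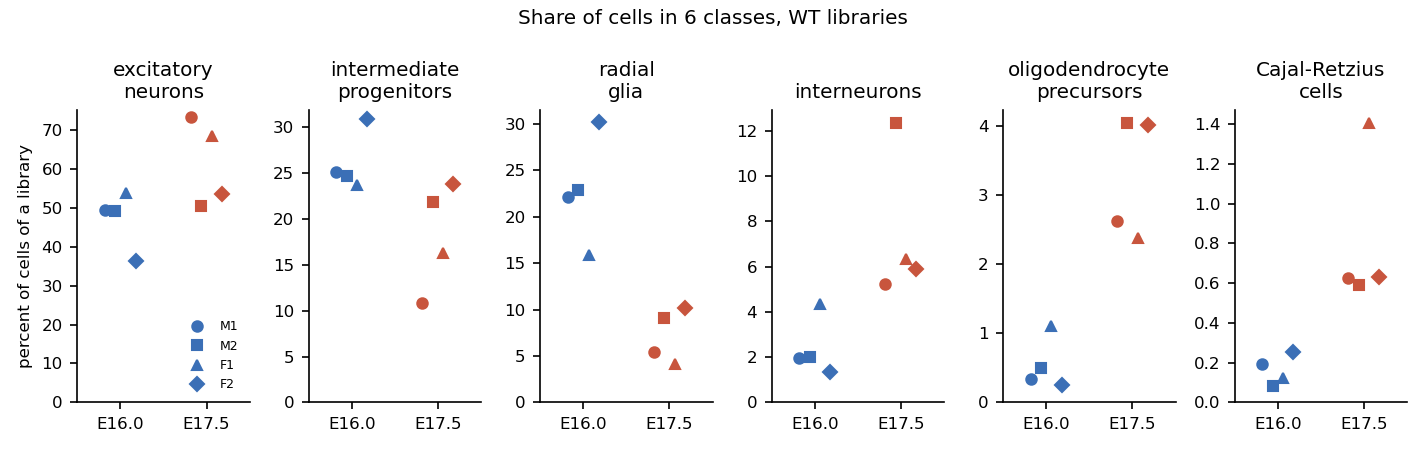
Percent of cells per library in 6 classes, with E16.0 and E17.5 in separate columns and 1 point per library. Radial glia, interneurons, oligodendrocyte precursors and Cajal-Retzius cells do not overlap between stages.

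Within radial glia, 13 of 20 tested astrocyte onset genes rose and 21 of 22 replication genes fell. Of 11327 genes tested, 1428 (12.6%) rose and 1104 (9.75%) fell. Tnc, a matrix protein of late radial glia, lay at 80.1, 97.6, 81.7 and 88.9 CPM of the class at E16.0 and at 426, 337, 417 and 290 CPM at E17.5 (2.13, SE 0.14, adjusted p = 6.02e-06). Slco1c1 lay at 29.9, 29.4, 27.4 and 35.8 CPM and then at 144, 132, 174 and 103 CPM (2.22, SE 0.16, adjusted p = 6.13e-06). The stages were far apart for both genes, and M1 did not stand out. Among genes averaging 5 or more in log2 CPM within the class, the other largest rises were S100a16, a calcium-binding protein, at 2.19 (adjusted p = 0.000127), Htra1, a secreted protease, at 2.08 (adjusted p = 7.92e-05), and Pxdc1 at 2.06 (adjusted p = 6.02e-06).

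None of the 20 astrocyte onset genes fell within radial glia (median 1.12), and in the whole tissue 6 of 21 rose. At 2 times the clustering resolution, 11 of 19 rose (median 0.79), and 13 of 20 with the unnamed cluster (median 1.13). Slc1a2 lay at 2.98, 2.66, 5.27 and 3.63 CPM and then at 35.6, 32.2, 22.2 and 29.8 CPM (3.15, SE 0.22, adjusted p = 6.02e-06). Gfap lay at 0.868, 0.925, 0.989 and 0.519 CPM and then at 12.1, 9.75, 7.99 and 6.28 CPM (3.48, SE 0.30, adjusted p = 2.67e-05), and was too low to be tested at 2 times the resolution without the unnamed cluster (3.50 with it). Apoe lay at 117, 108, 109 and 104 CPM and then at 283, 439, 304 and 216 CPM (1.56, adjusted p = 0.000155). Each of these genes was higher in all 4 E17.5 libraries. Egfr (2.71), Id3, an inhibitor of proneural factors (1.86), Sparcl1, a secreted astrocyte protein (1.85), Aqp4, a water channel (1.56), and Aldh1l1, an astrocyte enzyme (1.41), were among the other risers.

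Of the 18 radial glia genes themselves, 9 rose and 1 fell within the class (median 0.37), and at 2 times the resolution 5 of 17 rose and 1 fell, or 9 and 1 of 18 with the unnamed cluster. Fabp7, a fatty acid carrier of radial glia, rose by 0.82 (SE 0.10, adjusted p = 0.000206), and Ptprz1, a receptor phosphatase, by 1.62. Vim (-0.38, adjusted p = 0.136) and Aldoc (-0.06, adjusted p = 0.765), which fell in the whole tissue, were not called within the class. The gene of the list that fell was Hes1 (-0.82).

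Replication and mitosis genes fell within radial glia too, 21 of 22 (median -1.02) and 13 of 24 (median -0.51), and none rose. The counts depended on that cluster: at 2 times the resolution 13 of 22 replication genes fell (median -0.64), while of the 24 mitosis genes none fell and 1 rose (median 0.06). In that fit 699 of all 10918 genes rose and 452 fell, against 1428 and 1104 of 11327 at the main resolution. With the unnamed cluster kept in the class, 21 of 22 and 12 of 24 fell (medians -1.01 and -0.50). Mcm7 lay at 374, 377, 255 and 295 CPM of the class at E16.0 and at 141, 92.0, 148 and 95.8 CPM at E17.5 (-1.40, SE 0.18, adjusted p = 0.000287). Among genes averaging 5 or more in log2 CPM within the class, it was 1 of the 5 largest falls with Mthfd2 (-1.36) and Shmt1 (-1.32), enzymes of folate metabolism, Chaf1b, a histone chaperone of replication (-1.33), and Pold1, a DNA polymerase subunit (-1.32). The strand used in counting is not stated, and Mcm7 overlaps Cops6 and Ap4m1. Mcm3 fell by 1.13 (adjusted p = 0.00199) and Cdk1 by 0.77 (adjusted p = 0.0371), the last lost without E16.0 M1, M2 or F1 or E17.5 M2 or F2 (up to 0.0954) and at 2 times the resolution (-0.23, adjusted p = 0.53; 0.0454 with the unnamed cluster). Mki67 again split off M1, with 277 CPM there and 95.8 to 119 CPM in the other E17.5 libraries, against 117 to 136 CPM at E16.0 (0.28, adjusted p = 0.451). Clusters 10 and 14, led by cell cycle genes, held 51.9% of the class at E16.0 and 37.3% at E17.5. Cluster 16, whose leading genes included Spdl1, Cenpe and Mki67, held 11.9% and 10.9%. Hmga2 (-1.64, adjusted p = 5.86e-05) and Igf2bp2 (-1.28, adjusted p = 0.000645) fell within the class.

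Markers of other cells also moved within the radial glia class, where 12.6% of all genes rose and 9.75% fell. Of 5 tested oligodendrocyte precursor genes 4 rose, of 3 tested pericyte genes 2, of 2 tested fibroblast genes 2 and of 5 tested genes of ganglionic eminence progenitors 2. Among neuronal lists, 10 of 18 tested receptor genes, 5 of 17 transmitter release genes, 4 of 13 genes of newborn migrating neurons and 4 of 10 intermediate progenitor genes rose and none of them fell, and of 8 tested interneuron genes 1 rose and 2 fell. Olig1 had a mean of 0.8004 CPM at E16.0 and 21.7 CPM at E17.5 in radial glia, where intermediate progenitors had 0.381 and 2.65 CPM and excitatory neurons 0.248 and 2.54 CPM. Slco1c1 had means of 30.6 and 138 CPM in radial glia, 5.6 and 26.7 CPM in intermediate progenitors and 0.234 and 1.43 CPM in excitatory neurons. Hba-a1, a globin of red cells, lay at 3007 CPM in radial glia of E17.5 M2 and at 33.7 to 158.6 CPM in the other E17.5 libraries. Ogn, a proteoglycan of fibroblasts, lay at 0.778 to 1.81 CPM and then at 9.95 to 24.8 CPM (3.84). At 2 times the resolution, without the unnamed cluster, which Ogn led, neither fibroblast gene was high enough to be tested, and with it both rose. The part of such cells in the rises of this class was not tested.

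**Figure D5:**
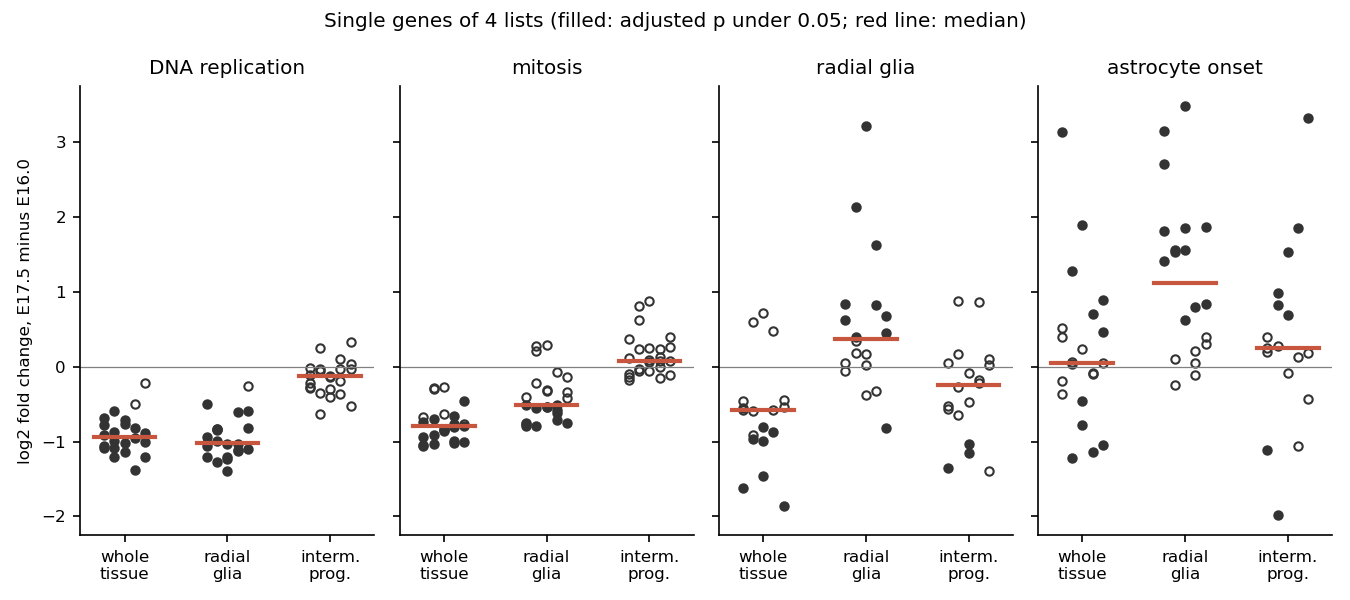
Log2 fold change (E17.5 over E16.0) of each gene of the DNA replication, mitosis, radial glia and astrocyte onset lists in the whole tissue, radial glia and intermediate progenitors; filled points have an adjusted p under 0.05 and red marks are medians. Replication genes lie below 0 in the whole tissue and radial glia (medians -0.94 and -1.02) and near 0 in intermediate progenitors (-0.13), and astrocyte onset genes lie highest in radial glia (1.12).

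Within intermediate progenitors, fewer genes were called. Of 11502 tested, 226 (1.96%) rose and 157 (1.36%) fell, 383 calls in all. Without E17.5 M1 1568 were called, and without E16.0 M2 100 were. Lpar1 lay at 74.2, 93.0, 73.3 and 75.3 CPM at E16.0 and at 31.8, 20.3, 25.1 and 20.2 CPM at E17.5 (-1.64, SE 0.14, adjusted p = 0.000678). Among genes averaging 5 or more in log2 CPM within the class, the other largest falls were Aldoc (-1.35, adjusted p = 0.00182), Vim (-1.15, adjusted p = 0.00602), Shisa2 (-1.14, adjusted p = 0.0091) and Dll1, a Notch ligand (-1.12, adjusted p = 0.009). At the same minimum level, the largest rises were Galnt17, a sugar transferase (1.26, adjusted p = 0.0249), Nav2, a microtubule-associated protein (1.13), Loxl1, a lysyl oxidase (1.02), Pam, an enzyme of peptide amidation (1.00), and Apoe (0.99, adjusted p = 0.00182). Galnt17 lost its call without E16.0 M1, M2 or F2 or E17.5 M2, F1 or F2 (up to 0.0955) and at 0.5 and 2 times the resolution (0.0985 and 0.0967), as did Nav2 at these resolutions (0.106 and 0.0906). Of 22 replication and 24 mitosis genes none was called in this class, with medians of -0.13 and 0.08 (4 and 1 fell without E17.5 M1), and of 14 intermediate progenitor genes 4 fell and 1 rose. Of lists of other cells, 3 of 18 radial glia genes fell and none rose, 7 of 23 tested transmitter release genes rose and none fell, and of 17 tested astrocyte onset genes 6 rose and 2 fell. The make-up of the class differed too: cluster 8, led by Neurog1 and Neurog2, held 28.9% of it at E16.0 and 16.996% at E17.5, and cluster 0 held 44.0% and 54.0%. At 2 times the resolution, a cluster with Dll1 and Lpar1 among its leading genes had 663 cells at E16.0 and 191 at E17.5. The part of the make-up in these results was not tested, nor whether the lists differed between the classes.

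Within excitatory neurons, 6 of 16 deep-layer genes fell and 7 of 17 tested upper-layer genes rose. Of 12637 genes tested, 321 (2.54%) rose and 273 (2.16%) fell, 594 calls in all. Without E17.5 M1 988 were called, and without E16.0 M2 265 were. The clusters of the class, made without adjustment for stage or library, differed between stages. With the cells of a stage pooled, clusters 3, 5, 6 and 9 held 83.8% of the class at E16.0 and 9.75% at E17.5. Clusters 1, 2, 4 and 11 held 11.7% and 83.7%. Cluster 2, with 26.6% of the class at E17.5, came mostly from E17.5 M1. Fezf2 lay at 295, 330, 208 and 197 CPM of the class at E16.0 and at 61.7, 23.9, 70.3 and 42.8 CPM at E17.5 (-2.30, SE 0.28, adjusted p = 0.00165). Bcl11b lay at 462, 472, 340 and 358 CPM and then at 130, 74.5, 114 and 109 CPM (-1.87, SE 0.16, adjusted p = 0.000155). For both genes every E17.5 library was far below every E16.0 library, and M2 was the lowest. The median of the deep-layer genes was -0.95, and 1 rose; without E17.5 M1, 9 fell and 1 rose. Sox5, a factor of deep-layer and subplate neurons, was among those that fell (-1.76), and Etv1, a factor of layer 5, was the riser (2.60). Tbr1 fell by 0.75 (adjusted p = 0.0363) but lost its call without E16.0 M1, M2 or F2 or E17.5 F1 or F2 (up to 0.126). Of 7 tested subplate genes, 3 fell (1 with the replicate block), Lpar1 by 1.55.

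Of the upper-layer genes tested in the class, 1 fell (median 0.40). Pou3f2 lay at 264, 244, 315 and 278 CPM and then at 675, 442, 465 and 587 CPM (1.03, SE 0.14, adjusted p = 0.00222). Cux1 (1.03), Lmo4, a LIM domain regulator (0.84), and Dok5, an adaptor protein (0.88), were further risers. Cux2 rose by 1.01 (adjusted p = 0.0222; up to 0.0807 without E16.0 M1, M2 or F2 or E17.5 M2 or F2). Cdh13 was the faller (-2.03, adjusted p = 0.00211). Among genes averaging 5 or more in log2 CPM within the class, the largest rises included Zbtb20, a transcriptional repressor (1.59, adjusted p = 0.00292), Sema3c (1.55), Unc5d (1.27), Lsamp (1.19) and Osbpl6 (1.17).

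The largest fall in excitatory neurons among genes of at least that level was in Lrrtm3, a synaptic adhesion protein, at 61.3, 89.0, 48.6 and 57.5 CPM at E16.0 and at 12.6, 5.94, 16.7 and 9.93 CPM at E17.5 (-2.42, SE 0.26, adjusted p = 0.000922). Lrrtm3 overlaps Ctnna3 on the other strand. Bcl2, an inhibitor of cell death (-2.12, adjusted p = 0.0032), and Igfbp3, a binding protein of insulin-like growth factors (-2.05, adjusted p = 0.0121), followed. Of 31 tested receptor genes in the class, 3 rose and 1 fell (3 and 3 without E17.5 M1; median 0.19), and of 25 transmitter release genes 3 rose and 2 fell. Of all genes tested in the class, 2.54% rose and 2.16% fell. The transporters of glutamate into vesicles went in opposite directions, Slc17a6 by 1.03 and Slc17a7 by -1.31. Of 26 tested axon guidance genes, 2 rose and 5 fell. Of 15 tested interneuron genes none rose and 1 fell (2 of 17 rose and 1 fell without E17.5 M1), and of 3 tested Cajal-Retzius cell genes 1, Calb2, rose (2.47). The part of other cells in this class was not tested.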

How the data were processed

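The authors deposited raw UMI counts per gene and barcode for each library; per the submitters' processing notes, STAR 2.7.9a, STARsolo and Cell Ranger were used with build mm10, without stated roles. Whether counting used strand is not given. The members and the gene lists were chosen with earlier results of these data known. Barcodes with at least 1000 UMIs and 500 genes were kept, UMIs were summed per library, and low genes were removed with edgeR's filter. edgeR 4.0.16 (TMM, quasi-likelihood, Benjamini-Hochberg) in R 4.3.3 made the tests, which were checked on simulated data. Alternatives used DESeq2 1.42.0, other scalings, left-out libraries and, for barcodes weighted equally, limma 3.58.1 without TMM. Replicates are separate embryos.

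For classes, doublets were removed (0.8% per 1000 barcodes), 2000 variable genes gave 30 components, and cells were clustered (Leiden, 20 neighbours, resolution 1, igraph 0.11.9) and named from marker genes. Named genes were the 10 largest rises and falls without overlap between stages (mean log2 CPM at or above 4), for each list its first gene, its 2 largest called changes and its 2 of highest level, and 5 per direction in a class (mean log2 CPM there at or above 5). Further genes, such as Egfr, Pdgfra, Ogn and Sox5, were chosen after their values were seen. A few genes that the rule names are not reported here. Positions come from GENCODE M21. Overlapping genes include Ccne2 with Ints8, Ccna2 with Exosc9, Ube2c with Tnnc2, Dlx1 with Dlx1as, Nfix with Lyl1, Htra1 with Fgfr2, Shmt1 with Smcr8 and Ankrd37 with Ufsp2. Replicate names did not pair embryos across stages (r of -0.02, 0.03, 0.19 and 0.21).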

Additional observations from a re-analysis of the deposited data

Results flagged for a closer look

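In groups of 4 libraries, 13 of the 174 sets of values tested had 1 library whose gap to the next was large against the range (Dixon's 95% criterion), where chance gives about 1 in 20. E16.0 F1 was high for Lsamp (64.6 CPM, others 32.4 to 33.7) and Osbpl6 (21.5 CPM, others 13.0 to 13.7), and low for Neurog1 (10.8 CPM, others 14.1 to 14.53), Mcm3 (52.8 CPM, others 90.4 to 97.7) and Ndnf (1.24 CPM, others 2.28 to 2.37). E16.0 F2 was low for Gfap (0.279 CPM, others 0.444 to 0.468) and Bcl11b (121 CPM, others 206 to 220). At E17.5, F1 was high for Reln (68.5 CPM, others 32.6 to 37.3), low for Sema3c (72.2 CPM, others 93.8 to 98.3) and high in its share of Cajal-Retzius cells (1.40% of cells, others 0.592% to 0.633%). E17.5 F2 was high for Ldha (350 CPM, others 266 to 277), E17.5 M1 for Krt14 (5.45 CPM, others 0 to 0.0939), and E17.5 M2 in its share of interneurons (12.4% of cells, others 5.22% to 6.32%).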

How the results depend on the processing

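Of 65 named genes called in the whole tissue, 45 were called without each library in turn, as were 17 of 18 in radial glia, 12 of 15 in excitatory neurons and 9 of 10 in intermediate progenitors, and no called gene changed direction under the settings run. The whole tissue gave 562 to 2331 calls without 1 library (fewest without E16.0 M2, most without E17.5 M1; 631 without E16.0 M1, 850 without E16.0 F2 and 937 without E17.5 F1), against 1793 with all. DESeq2 gave 2837, code p alone 2911, and males only and females only 0 each (2594 and 1998 at an unadjusted p under 0.05). The het libraries gave 3481 with DESeq2 and 681 to 4133 without 1 library, from 2229. Radial glia gave 1151 at 2 times the resolution (2540 with the unnamed cluster kept) and 1362 to 3041 without 1 library, from 2532. Intermediate progenitors gave 704 with DESeq2, 169 at 0.5 times and 197 at 2 times the resolution, and 100 to 1568 without 1 library, from 383. Excitatory neurons gave 919 with DESeq2 and 265 to 988 without 1 library, from 594. Replicate names did not pair embryos across stages; with the replicate block the calls were 1696 in the whole tissue, 1749 in het, 1762 in radial glia, 100 in intermediate progenitors and 359 in excitatory neurons, and 0 for the interaction. With the block, Sox2 (adjusted p = 0.0147) and Fabp7 (0.014) were called and Galnt17 (0.0817), Loxl1 (0.0509), Msmo1 (0.0816), Ankrd37 (0.0816) and mt-Atp6 (0.0508) were not.

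Values that were not called with all libraries and changed sign were Mki67 (0.0422 with males only, and in radial glia -0.1866 without E17.5 M1 up to 0.4395 without E17.5 M2), Apoe (-0.0095 with the replicate block, -0.1878 without E17.5 M2 to 0.1643 without E17.5 M1, -0.46 with code p alone and -0.0056 with barcodes weighted equally), Neurod6 (-0.0251 with barcodes weighted equally), Tbr1 (0.0116 with codes c16 and c17 alone) and Grin2b (-0.62 with codes c16 and c17 alone, where it was called, -0.0695 with barcodes weighted equally). With doublets kept, the differences in share became -0.0009 percentage points for microglia and -0.0276 for pericytes. Further named genes of the whole tissue lost their calls as follows. With barcodes weighted equally these were Egr1 (adjusted p = 0.0775), Igf2 (0.0786), Nfix (0.0567), Rims1 (0.1045), mt-Atp6 (0.0881) and Ankrd37 (0.05505). With codes c16 and c17 alone they were Robo2 (0.0651), Cacng2 (0.0501) and Nfix (0.0511), and with code p alone Nfix (0.0536) and Msmo1 (0.116). With sex as a covariate they were Hmgb2 (0.0637), Rims1 (0.0559), Dlx1 (0.0526), Msmo1 (0.0641) and Ankrd37 (0.0626). With 16 libraries sharing the spread they were Rims1 (0.0505) and Ankrd37 (0.114), with thinning Rims1 (0.0517), Msmo1 (0.051) and Ankrd37 (0.0516), with doublets left out Rims1 (0.051), and with upper-quartile scaling Msmo1 (0.0501). The causes were not tested. With 4 embryos a stage, the classes at the smallest exact p had an adjusted p of 0.0714, and genes under a few CPM rest on few UMIs.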

Other observations

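Genes of embryonic globins, which early red cells carry, were high in 2 of the 8 libraries. Hbb-y lay at 59.8 and 81.4 CPM in E16.0 M1 and M2, at 1.36 and 2.00 CPM in E16.0 F1 and F2, and at 0 to 0.507 CPM at E17.5 (log2 fold change -7.66, edgeR adjusted p = 0.018). Hba-x lay at 6.53 and 33.5 CPM in E16.0 M1 and M2, at 0.0591 and 3.11 CPM in F1 and F2, and at 0 to 0.76 CPM at E17.5 (-5.88, adjusted p = 0.0405). M1 and M2 carry the label code c6 at E16.0 and F1 and F2 the code c7. In the Chd8 het libraries neither gene was called (Hbb-y -2.23, adjusted p = 0.121; Hba-x -1.22, adjusted p = 0.498). These genes were chosen after their values were seen.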
